A study of Homo sapiens with 4 samples.

Results

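The response of Huh7 cells to arsenic trioxide (ATO) was read from 2 expression profiles, 1 of cells given 3 μM ATO for 7 days and 1 of cells given DMSO as the negative control. These are 2 of the 4 profiles of the study, the other two being the same pair in Hep3B. Both lines are established human hepatocellular carcinoma (HCC) lines, and the study asked whether low-dose ATO drives the cancer stem cells of HCC to differentiate. Total RNA was labeled and read on Affymetrix U133 Plus 2.0 arrays, which measure a transcript with a probe set of several short probes. The unit is the authors' normalized intensity on a linear scale. Each of 19775 genes was read from its brightest probe set, and 12607 of them had a mean intensity over the 2 Huh7 profiles above that of the median probe set, 16.2. Genes at or below that level are called dim. Each condition has 1 profile, so a ratio of ATO over DMSO has no error of its own, no p-value can be given and every comparison is a description. A gene was counted as higher past a ratio of 1.5 and as lower past 0.67, the thresholds used in the study.

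Arsenic in its trivalent form binds thiol groups of proteins and of glutathione. Cells are known to answer with NRF2, a transcription factor that switches on oxidant defence genes, and with metallothioneins, small proteins that bind metals. Liver cells also methylate arsenic. In acute promyelocytic leukemia ATO is given as a differentiation therapy. Huh7 itself is usually described as a well differentiated line that secretes albumin and α-fetoprotein and that can make glucose and lipoproteins.

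The hepatocyte character of the Huh7 profiles was checked with 11 marker genes, all of which were above the median probe set. SERPINA1, which encodes α1-antitrypsin, had an intensity of 10211 with ATO and 12710 with DMSO, and APOB, the backbone of lipoproteins, 4056 and 4109. The markers that the line is best known for were much weaker. ALB, the gene of albumin, stood at 358 with ATO and 155 with DMSO in Huh7, against 10730 and 12803 in Hep3B. AFP, the gene of α-fetoprotein, stood at 62.1 and 91.8 in Huh7 against 1646 and 3566 in Hep3B. TTR, which encodes transthyretin, was at 32.8 and 48.1 against 1983 and 1704. GPC3, an oncofetal proteoglycan of HCC, was at 32.8 and 29.3 against 2397 and 3730. On ALB, AFP, TTR and GPC3 the profiles thus go against the usual description of Huh7, in the control as well as with ATO, and the identity of the culture was not tested here beyond these markers. The line keeps its labelled name below. Of the markers of other cell types, 2 of 7 for stellate cells and fibroblasts, 1 of 5 for endothelial cells and 1 of 4 for leukocytes were above the median probe set. The single leukocyte marker above it was LYZ, at 234 and 411.

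Over all genes, 635 (3.21%) were past 1.5 in Huh7 and 642 (3.25%) past 0.67. Among the 12607 genes above the median probe set, 483 (3.83%) were higher and 509 (4.04%) lower. The median log2 ratio over all genes was 0.01 in Huh7, and 95% of genes lay between -0.63 and 0.63. The authors' normalization brings the arrays to a like distribution, so this median cannot show whether RNA levels moved as a whole. Large changes were more often increases. Of the 483 higher genes 143 were past a ratio of 2 and 20 past 4, while of the 509 lower genes 85 were below 0.5 and 5 below 0.25. The DMSO value of 54 higher genes and the ATO value of 52 lower genes was dim, so the size of those ratios is uncertain. The poly-A controls, bacterial transcripts spiked into the RNA ahead of labeling, had a mean log2 ratio of -0.28 over 24 probe sets. Scaling to them would raise every log2 ratio by 0.28 and would turn the split over all genes into 2678 higher and 185 lower. The hybridization controls differed by 0.07. Changes below are therefore relative to the typical gene. The genes nearest to the thresholds were ICAM2 at a ratio of 1.5002 and GTPBP1 at 1.4996, and SIKE1 at 124 over 185 and DPYD at 41.4 over 61.8.

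**Figure D1:**
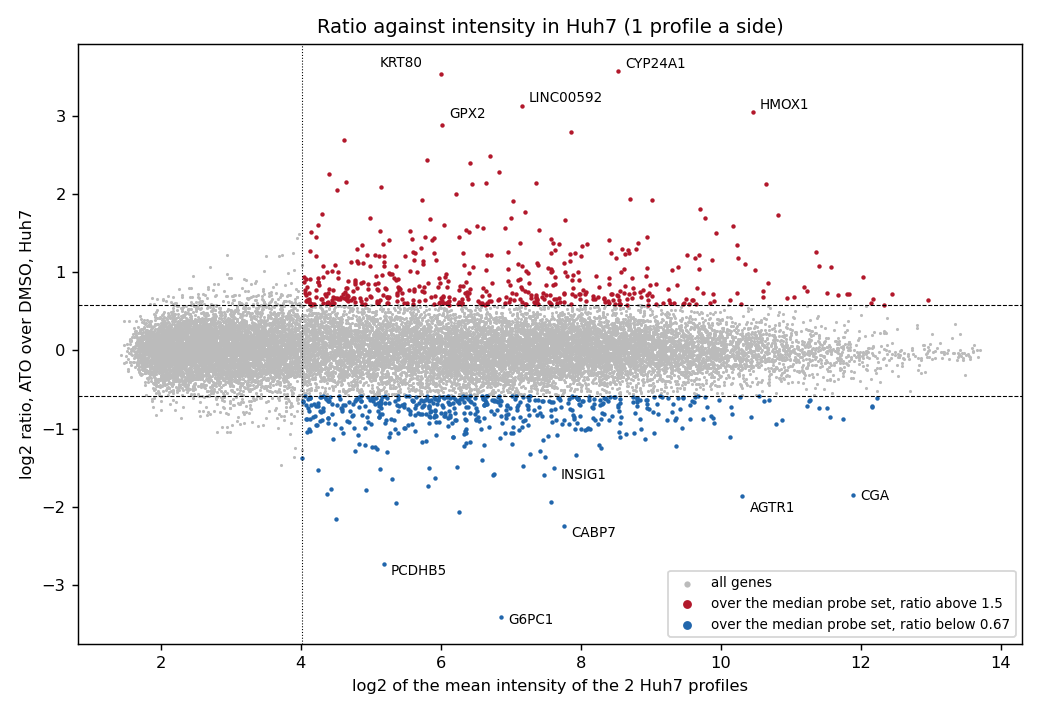
Log2 ratio of ATO over DMSO in Huh7 (y axis) against the log2 mean intensity of the 2 Huh7 profiles (x axis), 1 point per gene for 19775 genes. Dashed lines mark ratios of 1.5 and 0.67 and the dotted line the median probe set. Red points are the 483 higher and blue points the 509 lower genes above that level, with CYP24A1 at the top and G6PC1 at the bottom.

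The gene with the highest ratio was CYP24A1, the enzyme that inactivates vitamin D. It had an intensity of 687 with ATO and 57.7 with DMSO, a ratio of 11.9, whereas in Hep3B it was dim in both profiles at 9.77 and 9.25. KRT80, an epithelial keratin, followed at 119 and 10.2, a ratio of 11.6 over a dim control. LINC00592, a long noncoding RNA encoded beside it, was at 256 and 29.3, a ratio of 8.74. HMOX1, which degrades heme, was at 2507 and 303, a ratio of 8.28. GPX2, a glutathione peroxidase, was at 114 and 15.5, a ratio of 7.37. In Hep3B, KRT80, HMOX1 and GPX2 were also higher, with ratios of 7.00, 4.97 and 2.27, while LINC00592 had 1.08. The remaining genes among the 12 highest above the median probe set were ANXA1, CDA, OLFML3, SRPX2, PLAC1, DLGAP1-AS2 and UNC93A, with ratios between 4.77 and 6.91. ANXA1 encodes a phospholipid-binding protein, and CDA the cytidine deaminase of pyrimidine salvage, whose control value of 6.59 was dim.

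The gene with the lowest ratio was G6PC1, the catalytic subunit of glucose-6-phosphatase, the last enzyme of glucose release from the liver. It had an intensity of 20.1 with ATO and 213 with DMSO, a ratio of 0.0944. A second probe set of the gene read 15.2 and 54.4, a ratio of 0.28, so both were lower but by different amounts. CABP7, a calcium-binding protein, was at 75.8 and 359, a ratio of 0.211. GATM, which makes the precursor of creatine, was at 78.6 and 302, a ratio of 0.260. AGTR1, the angiotensin II receptor, was at 549 and 1990, a ratio of 0.276, and CGA, the α subunit that glycoprotein hormones have in common, at 1650 and 5940, a ratio of 0.278. AGTR1 and CGA were lower by a like amount in Hep3B, with ratios of 0.262 and 0.230. CABP7 and GATM were near or below the dim limit there, at 16.5 and 14.2 and at 5.11 and 4.75. PCDHB5, PTGER4, DSEL, SOX5, GAS2, ROBO2 and BRINP1 made up the 12 lowest, with ratios from 0.151 to 0.294. Of these, PCDHB5, a protocadherin, PTGER4, a prostaglandin E receptor, and GAS2, ROBO2 and BRINP1 ended at dim values with ATO.

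Genes that were past a threshold in Huh7 and little changed in Hep3B were set apart as Huh7-led. They were above the median probe set and had a log2 ratio within 0.3 of 0 in Hep3B. There were 185 such genes among the 483 higher and 234 among the 509 lower ones. The quartiles of the Hep3B log2 ratio over all genes were -0.14 and 0.23, so most genes lie within this window in any case. The Huh7-led genes were chosen on these ratios, so the contrast between the lines is their definition and not a finding. With 1 profile a side a difference between the lines cannot be told apart from noise. At the edge of the Hep3B window lay FAIM, inside at -0.2982, and ELOVL2, outside at -0.3017. In Huh7 the higher Huh7-led genes ranged up to 11.9, and 30 of them were past 2. Of the lower ones 30 were below 0.5. The control was dim for 29 of the higher genes, and the ATO value for 28 of the lower.

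CYP24A1 and LINC00592 headed the higher Huh7-led genes. SRPX2, a secreted sushi-repeat protein, followed at 94.6 with ATO and 17.5 with DMSO, a ratio of 5.40, against 13.9 in both Hep3B profiles. GPX3, the secreted glutathione peroxidase of plasma, was at 661 and 173, a ratio of 3.82, and its second probe set read 365 and 100, a ratio of 3.63. GPX3 was at 335 and 296 in Hep3B. S100A14, a calcium-binding protein of epithelia, was at 138 and 45.9, a ratio of 3.01, while in Hep3B it was already at 1247 and 1210. DUSP4, a phosphatase that switches off ERK, was at 180 and 61.0, a ratio of 2.96, and its other two probe sets gave 3.51 and 2.36. In Hep3B it was at 31.8 in both profiles. UNC93A, GBP3, VNN1, LINC02241, GPRC5B and ITGB1-DT completed the 12 highest, with ratios from 3.04 to 4.77. For UNC93A, VNN1, a pantetheinase, and LINC02241 the control was dim. Hep3B expressed UNC93A at 146 and 154 but had VNN1 dim at 5.17 and 5.51, so little change in Hep3B stood for a bright gene in some cases and for a silent one in others.

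Among the lower Huh7-led genes, ADH6, a liver alcohol dehydrogenase, was at 99.4 with ATO and 242 with DMSO, a ratio of 0.412, against 286 and 315 in Hep3B. Its second probe set gave 0.398. EPHA7, an ephrin receptor, was at 54.5 and 163, a ratio of 0.333. CA11, a carbonic anhydrase-related protein, was at 88.8 and 268, a ratio of 0.331. PDGFD, a growth factor, was at 19.2 and 59.9, a ratio of 0.321, while Hep3B held it at 179 and 205. PCDHB5, CABP7, GATM, BRINP1, NRN1, LINC01419, SLC38A11 and NAP1L2 completed the 12 lowest, with ratios from 0.151 to 0.410. PCDHB5, GATM, BRINP1, EPHA7, NRN1, LINC01419 and NAP1L2 were dim in both Hep3B profiles, EPHA7 just under the limit at 14.9 and 16.1. TFRC, SLC2A2 and NR5A2 are lower Huh7-led genes that were named after their values were seen. TFRC, the transferrin receptor for iron uptake, was at 3459 and 5700, a ratio of 0.607, and its next brightest probe set, at 2683 and 4561, gave 0.588. SLC2A2, the glucose transporter GLUT2 of hepatocytes, was at 281 and 586, a ratio of 0.479, and NR5A2, a nuclear receptor of liver metabolism, at 91.7 and 187, a ratio of 0.492.

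**Figure D2:**
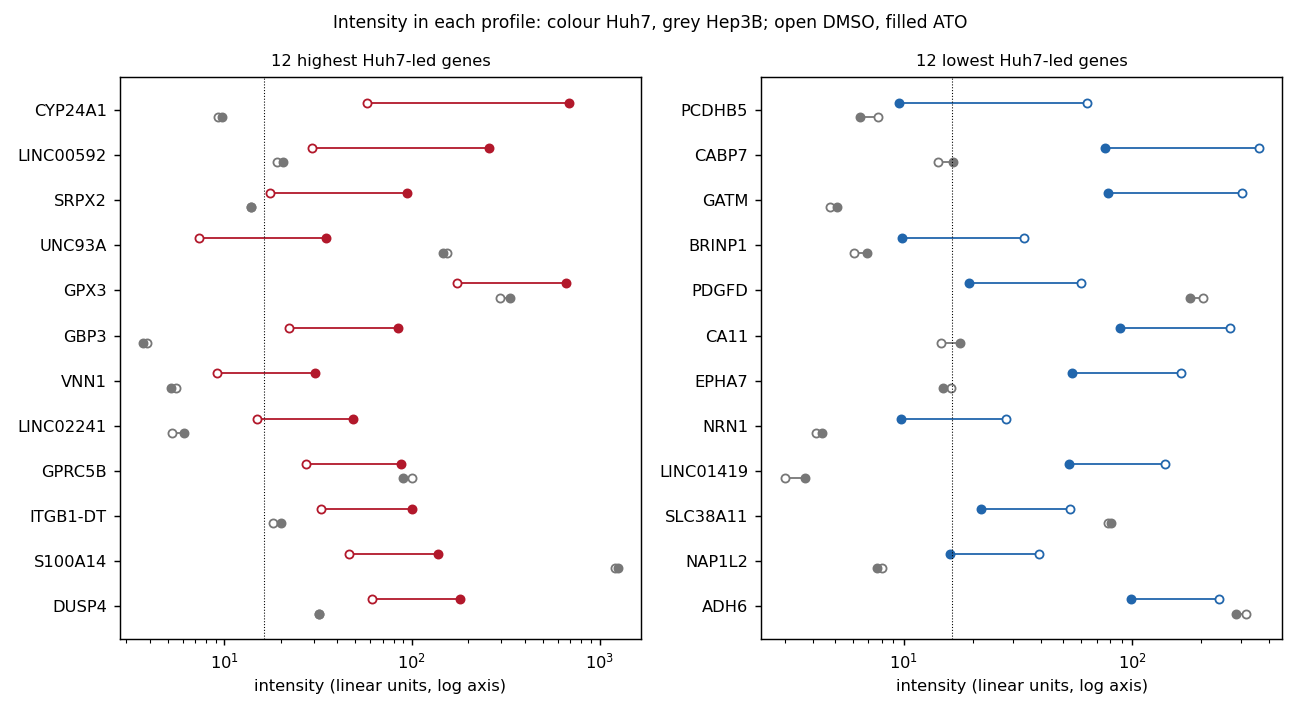
Intensity on a log axis (x axis) of the 12 highest and 12 lowest Huh7-led genes (y axis), with 1 open point for DMSO and 1 filled point for ATO in Huh7 (red or blue) and in Hep3B (grey). The dotted line marks the median probe set. Huh7 pairs lie far apart and Hep3B pairs nearly coincide, as the choice of these genes requires, and the Hep3B level runs from 3.00 for LINC01419 to 1247 for S100A14.

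The clearest group of lower genes belonged to cholesterol synthesis. All 16 measured members of this list were lower with ATO, 8 were past 0.67 and none was past 1.5, with a median log2 ratio of -0.58 against 0.01 over all genes. In Hep3B the same list had 1 member past 0.67, STARD4, and a median of -0.20. INSIG1, the sterol-sensing protein that holds back the SREBP transcription factors and is itself their target, was at 102 with ATO and 290 with DMSO, a ratio of 0.353. Its other two probe sets gave 0.407 and 0.396. MSMO1, a sterol demethylase, was at 467 and 927, a ratio of 0.504. SQLE, the squalene epoxidase, was at 261 and 496, a ratio of 0.527, and LSS, which closes the sterol ring, at 325 and 599, a ratio of 0.543. In Hep3B, INSIG1, MSMO1 and SQLE were also below 1, with ratios of 0.680, 0.753 and 0.740, none past 0.67. LSS in Hep3B was at 966 and 890, a ratio of 1.09. IDI1, DHCR7, SC5D and STARD4 had ratios between 0.547 and 0.661, IDI1 being read from a probe set ending in _x_at, a class that can also bind related transcripts and is called cross-binding below. Another IDI1 probe set, not of that class, had a log2 ratio of 0.46 against -0.87 on the one used, so the direction of IDI1 is not settled. DHCR7, which makes cholesterol in its last step, was at 274 and 492 in Huh7, and at 489 and 567 in Hep3B. The remaining 8 members had ratios from 0.676 for HSD17B7 to 0.880 for MVD and did not pass the threshold. SREBF2, the transcription factor of the pathway, was at 92.1 and 126, a ratio of 0.729. Scaled to the poly-A controls, 15 of 16 members stayed lower and 5 stayed past 0.67, with a median of -0.30.

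The synthesis of fatty acids shared part of this pattern. Of 17 members 3 were past 0.67 and none past 1.5, and the median log2 ratio was -0.17, or 0.11 under poly-A scaling. FASN, the fatty acid synthase, was at 139 with ATO and 352 with DMSO, a ratio of 0.395, but a second probe set read 45.2 and 39.8, a ratio of 1.14. SREBF1, the transcription factor of lipogenesis, was at 59.5 and 138, a ratio of 0.431. SCD, the stearoyl-CoA desaturase, was at 2410 and 4442, a ratio of 0.542, and its other three probe sets gave ratios from 0.395 to 0.508. In Hep3B, SREBF1 had a ratio of 0.601 and FASN and SCD had 0.785 and 0.746. Of 17 genes of fatty acid oxidation and other PPARA targets, 4 were past 0.67 and 1 past 1.5. ANGPTL4, an inhibitor of lipoprotein lipase, was at 240 and 516, a ratio of 0.465, and ACADM, the medium-chain dehydrogenase, at 1221 and 1910, a ratio of 0.639. VNN1 was the 1 higher member. On lipoprotein export, MTTP, which loads lipid onto APOB, was at 207 and 383, a ratio of 0.540, and APOM at 714 and 1544, a ratio of 0.462. Both were also lower in Hep3B, with ratios of 0.602 and 0.587.

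Glucose release was lower at 3 of its 13 listed genes, and none was past 1.5. Besides G6PC1 and SLC2A2 these included PCK1, the rate-limiting enzyme of gluconeogenesis, at 109 with ATO and 243 with DMSO, a ratio of 0.451. SLC37A4, the transporter that brings glucose-6-phosphate to that phosphatase, was at 488 and 714, a ratio of 0.684, just short of the threshold. PPARGC1A, a coactivator of this programme, was at 111 and 145, a ratio of 0.762. The other members lay between 0.817 and 1.20, so the list's median log2 ratio was only -0.09, or 0.19 under poly-A scaling. In Hep3B, G6PC1 and PCK1 were dim in both profiles, at 3.67 and 2.51 and at 10.1 and 7.22, and a ratio there carries little information.

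**Figure D3:**
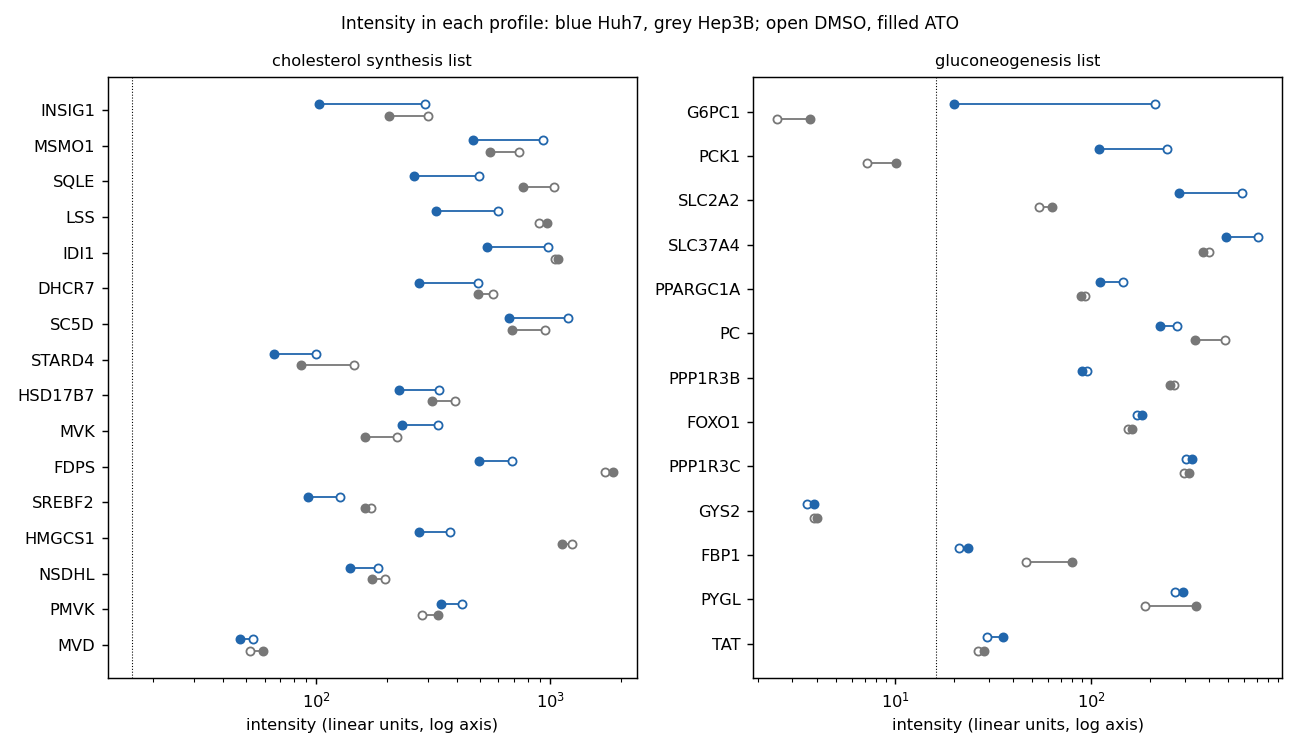
Intensity on a log axis (x axis) of the measured members of the cholesterol synthesis and gluconeogenesis lists (y axis), with open points for DMSO and filled points for ATO, blue for Huh7 and grey for Hep3B. The dotted line marks the median probe set. Every blue filled point of the cholesterol list lies left of its open point, with INSIG1 at 102 and 290, and among the glucose genes G6PC1 spans the widest gap, from 20.1 to 213.

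Oxidant defence was the list with most higher members. Of 24 NRF2 targets 16 were past 1.5 and none past 0.67, against 17 and none in Hep3B, and the median log2 ratio was 0.72. Behind HMOX1 and GPX2 came TXNRD1, the thioredoxin reductase, at 2781 with ATO and 835 with DMSO, a ratio of 3.33. SRXN1, the sulfiredoxin that repairs peroxiredoxins, was at 486 and 205, a ratio of 2.37. NQO1, a quinone reductase, was at 559 and 238, a ratio of 2.35. GCLM, the modifier subunit of glutathione synthesis, was at 1772 and 824, a ratio of 2.15. GSR, which regenerates reduced glutathione, was the 1 Huh7-led gene of the list, at 216 and 134 in Huh7, a ratio of 1.61, and at 162 and 161 in Hep3B. AKR1C1 and AKR1C2, read by cross-binding probe sets, started high in Huh7, at 4228 and 2469 with DMSO, and had ratios of 1.65 and 1.64. ABCC3, an export pump, had a ratio of 2.01 on a dim control, but its other four probe sets ranged from 0.702 to 1.18, so its direction is not settled. Outside this list, the peroxidase GPX3 was described above.

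The promoter windows of 3 of these genes are shown because they hold the core letters of the antioxidant element, through which NRF2 acts. The sequences are from RefSeq on GRCh38.p14, run 5′ to 3′ on the gene's strand from 250 bases before to 50 bases after the start, and capitals mark each match. The letters searched were TGACNNNGC on either strand, N being any base. GPX2 lies on the minus strand at chr14:64942696-64942995, TXNRD1 on the plus strand at chr12:104215529-104215828 and GCLM on the minus strand at chr1:93909381-93909680.
GPX2: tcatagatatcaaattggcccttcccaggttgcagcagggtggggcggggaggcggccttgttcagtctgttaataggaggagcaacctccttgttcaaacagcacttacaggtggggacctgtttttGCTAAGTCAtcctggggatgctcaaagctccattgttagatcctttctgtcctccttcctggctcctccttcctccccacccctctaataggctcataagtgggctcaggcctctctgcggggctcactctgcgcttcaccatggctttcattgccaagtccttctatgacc
TXNRD1: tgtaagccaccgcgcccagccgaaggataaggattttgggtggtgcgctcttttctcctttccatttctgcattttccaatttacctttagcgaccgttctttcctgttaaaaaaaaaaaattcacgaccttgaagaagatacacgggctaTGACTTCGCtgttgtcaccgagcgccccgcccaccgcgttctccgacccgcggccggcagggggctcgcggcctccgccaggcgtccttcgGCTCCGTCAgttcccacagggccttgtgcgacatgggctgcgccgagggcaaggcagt
GCLM: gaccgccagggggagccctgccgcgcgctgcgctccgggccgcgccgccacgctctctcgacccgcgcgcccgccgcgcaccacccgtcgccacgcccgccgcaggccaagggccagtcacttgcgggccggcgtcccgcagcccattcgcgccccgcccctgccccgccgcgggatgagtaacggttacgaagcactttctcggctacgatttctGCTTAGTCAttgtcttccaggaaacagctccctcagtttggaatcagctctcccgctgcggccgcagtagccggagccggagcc
Windows were found for 18 of the 24 genes, and 5 of these (27.8%) held the letters, against 14.8% of the windows of 15384 measured genes. The others were PIR and CBR1, the latter with a ratio of 1.31 and not past the threshold. TCACNCCAC, letters of the sterol element that SREBP factors bind, stood in 1 of 15 windows of cholesterol genes, that of SREBF2, and in 1.09% of all measured genes. A match is a description of letters and no evidence of binding, and a window without one says nothing about the factor.

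Metal-binding genes were higher too. Of 9 metallothioneins and zinc exporters 5 were past 1.5 and none past 0.67. MT1X was at 1337 with ATO and 413 with DMSO, a ratio of 3.24, and MT2A at 1739 and 579, a ratio of 3.00. MT1H, MT1F and MT1G had ratios between 1.67 and 2.37. All 5 were read by cross-binding probe sets, so the members cannot be told apart with certainty. Of 9 genes for the uptake and methylation of arsenic, GSTO2, an omega-class glutathione transferase, was at 46.9 and 20.0, a ratio of 2.34. AS3MT, the arsenic methyltransferase itself, was at 832 and 1464, a ratio of 0.568, against 0.769 in Hep3B. AQP3, a channel that also passes arsenite, was at 103 and 169, a ratio of 0.606, against 1.01 in Hep3B, but its other two probe sets gave 0.951 and 1.23 in Huh7.

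Feedback genes of growth factor signaling were higher in Huh7. Of 17 ERK feedback genes 7 were past 1.5 and none past 0.67, with a median log2 ratio of 0.52, whereas in Hep3B 3 were past 1.5, 6 past 0.67 and the median was -0.20. Beside DUSP4, the phosphatase DUSP5 was at 322 with ATO and 137 with DMSO, a ratio of 2.35, against 50.4 and 57.7 in Hep3B. SPRY4, an inhibitor of receptor tyrosine kinase signaling, was at 280 and 108, a ratio of 2.59. HBEGF, an EGF receptor ligand, was at 110 and 51.8, a ratio of 2.13, and ETV5, a transcription factor induced by ERK, at 199 and 98.4, a ratio of 2.02. EPHA2 had a ratio of 1.72. DUSP1 pointed opposite ways in the lines, at 1956 and 1158 in Huh7, a ratio of 1.69, and at 290 and 475 in Hep3B, a ratio of 0.611.

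Immediate early genes, which cells switch on within minutes of a stimulus, showed the same side. Of 19 genes 7 were past 1.5 and none past 0.67, with a median of 0.48 (log2), while Hep3B had 4 higher and 4 lower members. KLF4, a differentiation factor of epithelia, was at 253 with ATO and 86.9 with DMSO, a ratio of 2.91, and also higher in Hep3B at 2.69. IER3, a survival gene, was at 3703 and 1542, a ratio of 2.40, against 2192 and 2133 in Hep3B. JUN, a subunit of AP-1 read by a cross-binding probe set, was at 444 and 233, a ratio of 1.91, against 0.722 in Hep3B. FOSL1 was at 40.1 and 22.3, and FOS was dim. These are levels after 7 days, not within the minutes in which the genes are known to peak. With an offset of 16 added to each intensity, 4 of the 19 stayed past 1.5.

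Several genes induced by NF-kB were higher in Huh7. Of 23 targets and chemokines 9 were past 1.5 and 1 past 0.67 in Huh7, against 1 and 6 in Hep3B, although the Huh7 median log2 ratio was only 0.13. CXCL8, the chemokine interleukin 8, was at 1294 with ATO and 370 with DMSO, a ratio of 3.49 on a cross-binding probe set, and 2.63 on another. CCL20, a chemokine for lymphocytes, was at 1690 and 742, a ratio of 2.28, and at 1833 and 3650 in Hep3B, a ratio of 0.502. TNFAIP3 and NFKBIA, both inhibitors that NF-kB induces, were at 255 and 141 and at 525 and 328, ratios of 1.81 and 1.60. In Hep3B TNFAIP3 and NFKBIA had ratios of 0.938 and 0.926. ICAM1, an adhesion molecule, was at 337 and 200, a ratio of 1.68, and RELB, an NF-kB subunit, at 54.0 and 31.0, a ratio of 1.74. The 1 lower member was CXCL12, at 397 and 923, a ratio of 0.430.

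Keratins were higher as well. Of 11 keratins 6 were past 1.5 and none past 0.67, 2 of the 6 on cross-binding probe sets. KRT7, a keratin of bile duct cells, was at 164 with ATO and 37.1 with DMSO, a ratio of 4.42, but a second probe set, at 19.3 and 21.6, gave 0.892. KRT8 was at 5508 and 2869 and KRT18, its partner in hepatocytes, at 9701 and 6196, ratios of 1.92 and 1.57. KRT7 was the 1 of 6 bile duct markers past a threshold. KRT19 and CFTR were dim, and the summed intensity of these 6 markers was 1338 with ATO and 1411 with DMSO. On chromosome 12, KRT80, LINC00592 and KRT7 are consecutive among the genes above the median probe set, at chr12:52168996-52255853 on GRCh38.p14, and all 3 were past 1.5. Other such runs were the MT1 genes and ADGRG1, KIFC3 and CNGB1 on chromosome 16, VNN1, VNN3P and VNN2 on chromosome 6, all higher. Lower runs were SCD, OLMALINC and SEC31B on chromosome 10, ZNF835, PEG3 and PEG3-AS1 on chromosome 19, and ADH6, TRMT10A and MTTP on chromosome 4. Chromosome medians lay between -0.07 and 0.06 (log2). On chromosome 13, 19 of 210 genes (9.05%) were lower and 3 higher, and on chromosome 18, 14 of 181 (7.73%) were higher and 6 lower. These are the largest lower and higher shares of any chromosome, picked after the values were seen. Over all genes above the median probe set, 4.04% were lower and 3.83% higher.

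Targets of YAP and TEAD, which respond to cell stretch and contact, had 6 of 17 members past 1.5 and none past 0.67. CCN1, a matricellular protein, was at 1443 with ATO and 508 with DMSO, a ratio of 2.84, and CCN2 at 251 and 121, a ratio of 2.08. AMOTL2, a junction protein, was at 371 and 147, a ratio of 2.52. In Hep3B, CCN1 had a ratio of 1.48, CCN2 1.34 and AMOTL2 1.78. ANKRD1, a muscle stress protein and the highest member, had ratios of 4.44 over a dim control in Huh7 and 4.91 in Hep3B, and AXL, a receptor tyrosine kinase, 1.60 and 7.37. The matrix genes LOXL2, LAMB3 and LOX had ratios of 4.40, 2.73 and 2.69. In Hep3B, LOXL2 was also higher at 2.89, and LOX was lower at 0.295. LAMB3, a laminin chain of epithelial basement membranes, was at 80.4 and 29.5 in Huh7 but at 29.4 and 36.3 in Hep3B. COL5A2, a fibrillar collagen, was at 53.8 and 162, a ratio of 0.331. TGFBI, a matrix protein induced by TGF-beta, was at 5691 and 3604, a ratio of 1.58.

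Genes that hepatocytes secrete went both ways in Huh7. ALB had a ratio of 2.31 from its low control level. ORM1, an acute-phase protein, was at 582 with ATO and 239 with DMSO, a ratio of 2.44, and AHSG, the plasma protein fetuin-A, at 3693 and 1742, a ratio of 2.12. C3, the central complement component, was at 4529 and 2740, a ratio of 1.65, against 3830 and 4669 in Hep3B. APOC3, an apolipoprotein that slows the clearance of triglyceride, was at 1291 and 581, a ratio of 2.22, and at 541 and 989 in Hep3B, a ratio of 0.547. On the lower side, SERPINF2, the plasmin inhibitor, was at 76.6 and 214, a ratio of 0.358. APOC1, read by a cross-binding probe set, was at 1318 and 2434, a ratio of 0.541, and SERPINA6, the carrier of cortisol, at 388 and 604, a ratio of 0.642. Of the fibrinogen chains FGA and FGG were past 0.67 in Huh7, and FGA and FGB past 1.5 in Hep3B. FGA was at 1922 and 3008, a ratio of 0.639, FGG at 3810 and 5806, a ratio of 0.656, and FGB at 762 and 1012, which was not past the threshold. In Hep3B the ratios of FGA and FGG were 3.04 and 1.41, and FGB was at 590 and 210. The other two probe sets of FGA gave 0.434 and 0.528 in Huh7.

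Transcription factors that maintain the hepatocyte programme were lower or within the thresholds. Of 13 listed factors 5 were past 0.67 and none past 1.5, and 11 were lower at any size, with a median log2 ratio of -0.31 (-0.03 under poly-A scaling). PROX1, a regulator of liver development, was at 237 with ATO and 440 with DMSO, a ratio of 0.539, close to the 0.547 in Hep3B. FOXA3 was at 103 and 191, a ratio of 0.540, and ONECUT1, also known as HNF6, at 50.5 and 89.6, a ratio of 0.564. FOXA1 was at 22.1 and 33.9, a ratio of 0.650. CEBPB, a factor of the acute-phase response, was at 2132 and 1513, a ratio of 1.41, under the threshold. Among genes of amino acid breakdown, ARG1, the arginase of the urea cycle, was at 125 and 43.9, a ratio of 2.85, against 76.0 and 103 in Hep3B. ASS1, the enzyme that makes argininosuccinate, was at 2154 and 3890, a ratio of 0.554, against 1347 and 936 in Hep3B, a ratio of 1.44.

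**Figure D4:**
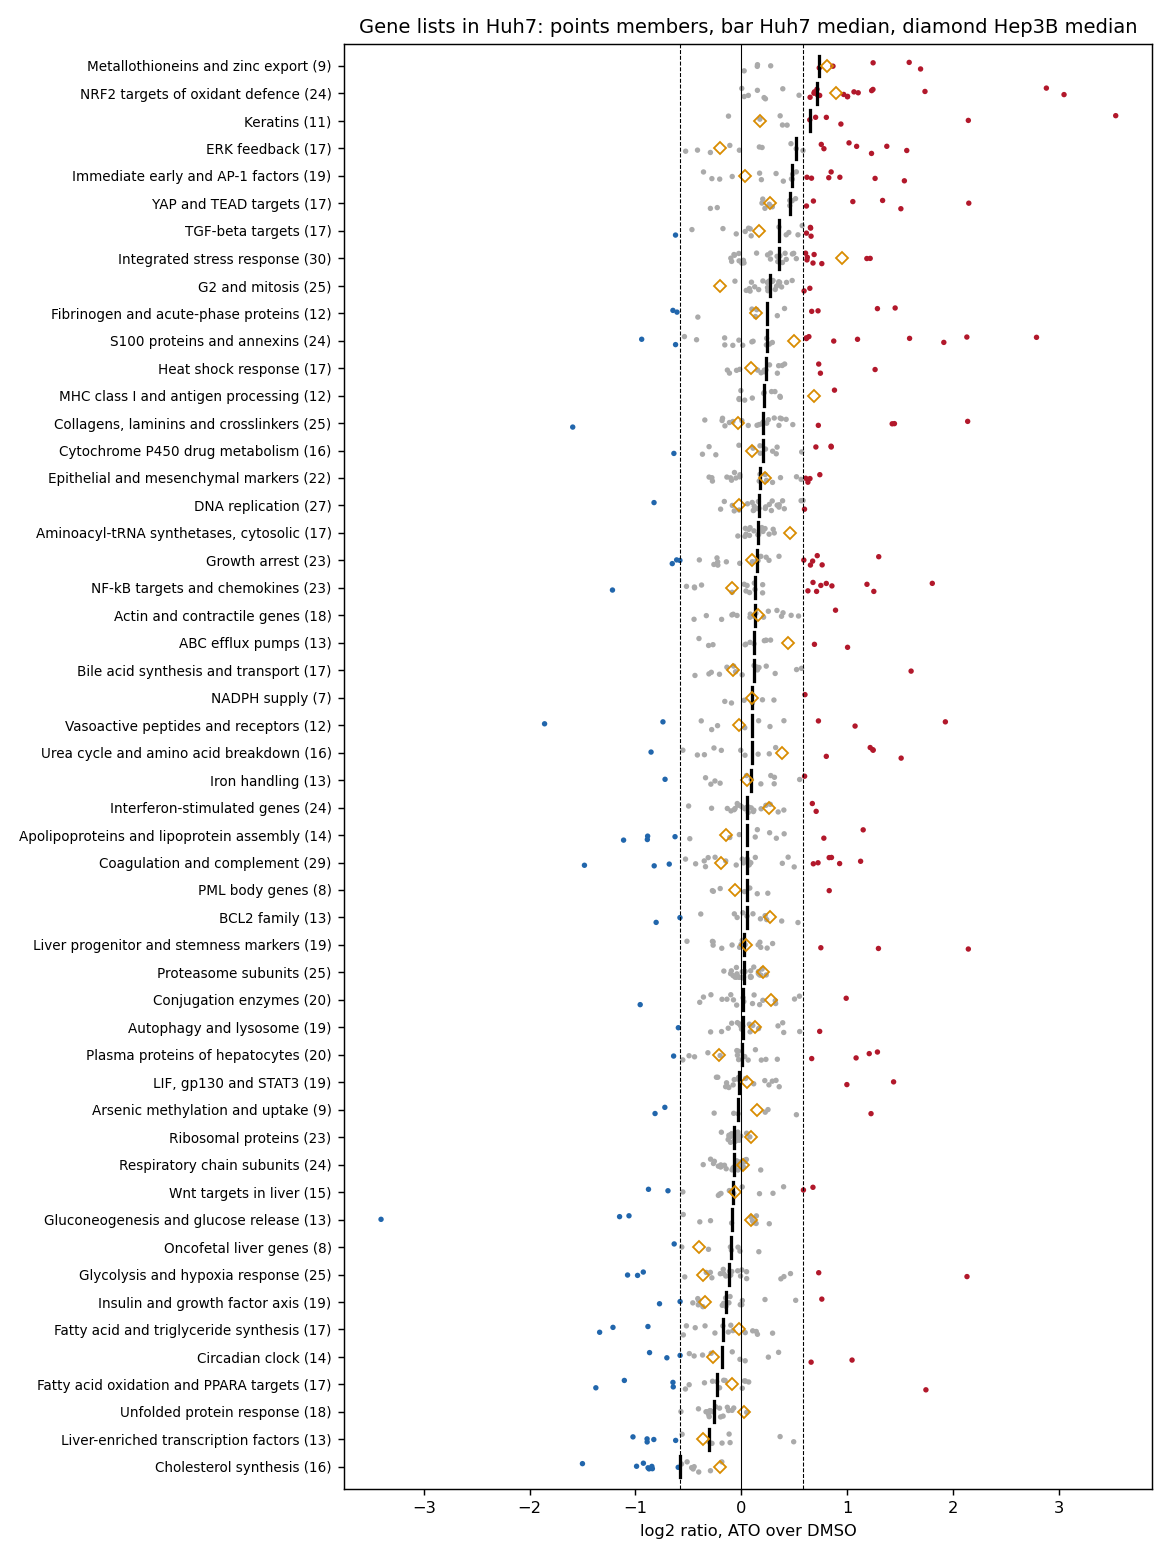
Log2 ratio of ATO over DMSO in Huh7 (x axis) for the measured members of 52 gene lists (y axis, number of members in brackets), ordered by the Huh7 median. Points are genes, red past 1.5 and blue past 0.67, black bars are list medians in Huh7 and open diamonds list medians in Hep3B. Cholesterol synthesis lies lowest at a median of -0.58, and the integrated stress response has its Hep3B median of 0.95 far above the Huh7 median of 0.36.

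Some genes of the integrated stress response, which ATF4 drives when translation initiation is blocked, were higher in Huh7, though fewer than in Hep3B. Of 30 genes 8 (26.7%) were past 1.5 and none past 0.67 in Huh7, against 20 and 2 in Hep3B. The medians were 0.36 and 0.95 on the log2 scale. NUPR1, a stress cofactor, was at 1153 with ATO and 496 with DMSO, a ratio of 2.33, and SLC7A5, an amino acid transporter, at 1105 and 486, a ratio of 2.28. STC2, a secreted stress glycoprotein, had ratios of 1.61 in Huh7 against 3.91 in Hep3B, and TRIB3, a pseudokinase, 1.52 against 2.74. None of 17 cytosolic aminoacyl-tRNA synthetases was past a threshold in Huh7, while 7 were past 1.5 in Hep3B. The unfolded protein response had none of 18 genes past a threshold, with 17 below 1 and a median log2 ratio of -0.25. That direction depends on the scaling, since poly-A scaling put the median at 0.02. Of 17 heat shock genes 3 were past 1.5. DNAJB1, a cofactor of HSP70, was at 578 and 344, a ratio of 1.68, against 0.902 in Hep3B, while CRYAB had ratios of 2.40 and 5.35 and HSPB8 of 1.66 and 1.99 in the lines.

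Cell cycle genes were near the control. Of 25 genes of G2 and mitosis 24 were above 1, but only TPX2 and UBE2C, with ratios of 1.57 and 1.51, passed the threshold. TPX2, a spindle assembly factor, was at 944 with ATO and 602 with DMSO. The median log2 ratio of the list was 0.27 in Huh7 and -0.20 in Hep3B, where 4 were past 0.67. Of 27 genes of DNA replication, E2F1 had a ratio of 1.51 and CCNE2 of 0.565, and the other 25 stayed within the thresholds. Genes of growth arrest and its stress response were split, with 6 of 23 past 1.5 and 3 past 0.67. PMAIP1, a pro-apoptotic gene, was at 549 and 223, a ratio of 2.46, and CDKN1A, a cell cycle inhibitor, at 353 and 224, a ratio of 1.57. SESN1 and CCNG2 had ratios of 0.636 and 0.655. No proteasome subunit of 25, respiratory chain subunit of 24 or ribosomal protein of 23 was past a threshold.

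Clock genes went both ways in Huh7. Of 14 genes 2 were past 1.5 and 3 past 0.67, and the median log2 ratio was -0.19, against none, 3 and -0.27 in Hep3B. NPAS2, a partner of BMAL1, was at 257 with ATO and 124 with DMSO in Huh7, a ratio of 2.07, and at 91.8 and 128 in Hep3B, a ratio of 0.719. BHLHE40, a repressor of the clock, was at 894 and 566, a ratio of 1.58, against 0.679 in Hep3B. DBP, a clock output factor, was at 48.7 and 88.9, a ratio of 0.548, against 0.955 in Hep3B, while TEF, a related factor, had 0.614 and 0.569. The 3 lower ones were not past it when all probe sets of a gene were averaged. In glycolysis and the hypoxia response, HK2, a hexokinase of tumors, was at 96.6 and 191, a ratio of 0.507, and PFKFB4 at 259 and 546, a ratio of 0.475. PFKFB3, its paralog, was at 545 and 328, a ratio of 1.66.

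A small set of genes was past the thresholds in opposite directions in the lines. Above the median probe set 23 genes were higher in Huh7 and lower in Hep3B, and 22 the reverse. Of the same 483 higher genes 140 were also higher in Hep3B, and of the 509 lower ones 108 were also lower. Over all genes 5.04% were past 1.5 and 4.02% past 0.67 in Hep3B, so the opposite counts are near those shares of the 483 and 509 genes. LOX, the lysyl oxidase that crosslinks collagen, was at 279 with ATO and 104 with DMSO in Huh7, a ratio of 2.69, and at 39.6 and 134 in Hep3B, a ratio of 0.295. A second LOX probe set gave 3.37 in Huh7. OLFML3, a secreted glycoprotein, was at 177 and 31.5 in Huh7 and at 406 and 670 in Hep3B, ratios of 5.61 and 0.606. ACSL5, which activates fatty acids, was at 281 and 115 in Huh7 and at 18.6 and 36.3 in Hep3B, ratios of 2.44 and 0.514. LGALS14, a placental galectin, had ratios of 2.67 and 0.323. On the reverse side stood FILIP1L, EBF1, NLRP1 and FGA, with Huh7 ratios from 0.350 to 0.639 and Hep3B ratios from 1.92 to 3.85. EBF1 was dim in both Hep3B profiles, at 10.1 and 5.26, so its ratio there carries little information, and NLRP1 was dim with ATO in Huh7. A second FILIP1L probe set above the median gave 0.964 in Huh7. PCDH9, a protocadherin, was at 26.0 and 86.5 in Huh7 and had a ratio of 6.31 in Hep3B, but another of its probe sets, at 120 and 92.6, gave 1.29 in Huh7. No difference between the lines was tested here.

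Of the genes that the study followed by other assays, LIF, a cytokine that maintains stem cells, was at 87.7 with ATO and 32.4 with DMSO, a ratio of 2.71. JAK1 was at 2027 and 1615, a ratio of 1.26, and STAT3 at 320 and 347, a ratio of 0.922. PROM1, which encodes the stem cell marker CD133, was at 721 and 729, a ratio of 0.989. AFP had a ratio of 0.677 and GPC3 of 1.12, both within the thresholds. The hepatocyte genes PCK1 and SLC37A4 were given above at 0.451 and 0.684. By quantitative PCR the paper reports lower LIF and JAK1 RNA with ATO and describes this as matching its array data. Its text does not name the line used for that PCR. By western blot, which reads protein, it reports lower LIF, JAK1, STAT3, CD133, AFP and GPC3. It also reports lower NF-kB members, namely P50, P52, P65, c-rel and RELB. Higher on its blots were PCK1, G6PT, which is the SLC37A4 protein, CK8 and cytokeratin. KRT8, the gene of CK8, points the same way as the blots, with a ratio of 1.92 on a cross-binding probe set. STAT3, PROM1 and AFP were lower here but within the thresholds. Past a threshold, the Huh7 ratios point the other way for LIF, PCK1 and RELB, the last given above. For JAK1, GPC3 and SLC37A4 they point the other way within the thresholds. The reason was not tested.

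Other probe sets of the same genes gave a second reading of the choice of probe set, though not of the culture, since they read the same RNA. Of the 483 higher genes 192 had another probe set above the median, 304 in all, and 85.2% of these were also above 1. Past 1.5 lay 43.1%, and none was past 0.67. Of the 509 lower genes 212 had another, 341 in all, of which 76.2% were below 1 and 34.0% past 0.67, with none past 1.5. Over all genes above the median probe set, 52.6% of other probe sets were above 1, 4.03% past 1.5 and 4.19% past 0.67. Huh7-led genes had 83.5% in the same direction on the higher and 75.6% on the lower side, with 26.2% and 27.4% past the threshold. The median gap between the probe sets of a gene was 0.37 on the log2 scale for the higher and 0.48 for the lower genes, with 10% of gaps over 0.94 and 1.04, against 0.20 and 0.55 over all genes above the median probe set. Some genes named above and past a threshold had at least 1 other probe set above the median on the opposite side of a ratio of 1. These were ABCC3, AQP3, DBP, FASN, GPRC5B, HK2, HSPB8, IDI1, KRT7, PCDH9, PFKFB4, SIKE1 and TFRC.

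**Figure D5:**
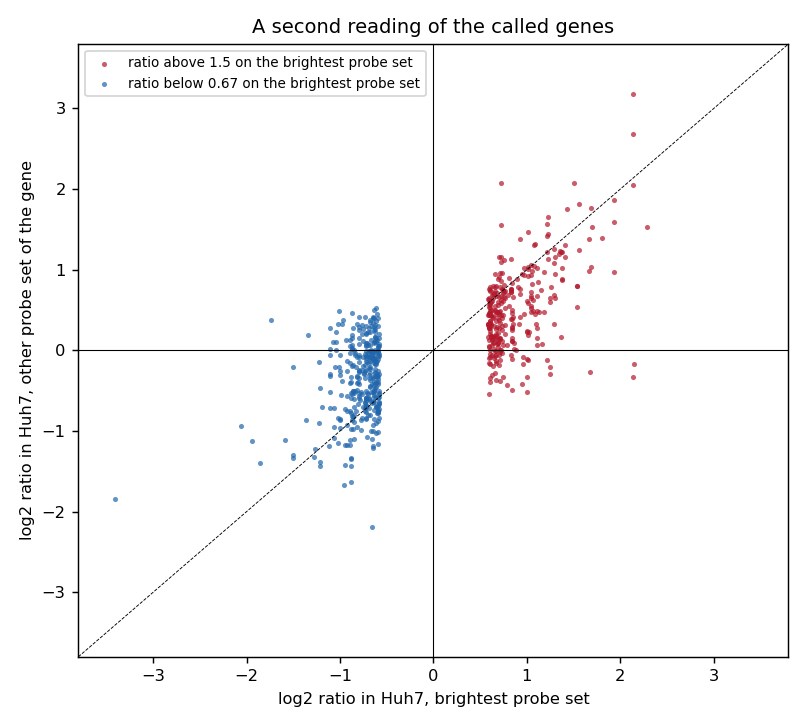
Log2 ratio in Huh7 of other probe sets above the median (y axis) against that of the brightest probe set of the same gene (x axis), 1 point per other probe set. Red points belong to the 192 higher and blue points to the 212 lower genes that have one, and the dashed line marks equal ratios. Most red points lie above 0 and most blue points below 0, nearer to 0 than the brightest probe set.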

How the data were processed

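The deposited values are linear intensities, 1 for each probe set. Per their methods the authors summarized the arrays by RMA (Robust Multi-array Average), took logs and normalized them in simpleaffy. The return to a linear scale, and whether a profile is 1 array or a mean, are not given in the sources used here. No further normalization was applied. Of 54675 probe sets 41097 name 1 gene, 1801 several and 11777 none, from the platform annotation. A gene was read from the probe set brightest over the 4 profiles among those naming it alone, and ratios were taken within a line with Python 3.11.15 and pandas 2.3.3. Probe sets ending in _x_at can bind related transcripts. Genes named are the 12 highest and 12 lowest, the same for Huh7-led genes, the 5 most extreme on each side in opposite directions, up to 4 members of each of 52 lists, and 8 genes of other assays; further members were named after their values were seen. The genes and lists were chosen with earlier results of these data known. The number of profiles, 1 a side, limits the precision, and whether separate cultures would differ is unknown. The steps were run on simulated data with little noise and large planted changes. That checks the calculation and says nothing about how reliable a call is with 1 profile a side. Alternatives covered the choice of probe set, normalization, an offset, filters, thresholds and the Hep3B window.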

Additional observations from a re-analysis of the deposited data

Results flagged for a closer look

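The genes with the widest gap between the lines, among those past the thresholds in opposite directions, are given as the log2 ratio in Huh7 minus that in Hep3B. The differences were not tested, since each line has 1 profile a side, and the genes were picked for them. On the side higher in Huh7 the difference was 3.21 for OLFML3, 3.19 for LOX, 3.05 for LGALS14, 2.25 for ACSL5 and 2.18 for CCL20. On the side higher in Hep3B it was -4.39 for PCDH9, -2.94 for FILIP1L, -2.46 for EBF1, -2.30 for NLRP1 and -2.25 for FGA. OLFML3 and CCL20 have 1 probe set each, and the next brightest probe sets of LOX and ACSL5 and the other two of FGA gave the same direction in Huh7. For PCDH9 a second probe set above the median was higher in Huh7, and for FILIP1L a second one was near 1. For NLRP1, EBF1 and FILIP1L some dim probe sets were also above 1 in Huh7. The Hep3B values of EBF1, 10.1 and 5.26, were dim, so its gap is uncertain.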

How the results depend on the processing

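No paired analysis was possible because each condition has 1 profile and no test was run, and no replicate could be left out. Of the 178 named genes past a threshold, 175 stayed past it with the brightest probe set taken over the Huh7 profiles, 172 with quantile normalization, 177 with median centring, 152 with an offset of 16 and 138 with the mean of all probe sets. With the brightest Huh7 probe set ABCC3 changed to a log2 ratio of -0.11 and PCDH9 to 0.37. Over all genes, an offset gave 296 higher and 309 lower, thresholds of 2 and 0.5 gave 154 and 93, poly-A scaling gave 2678 and 185, and the mean of probe sets gave 393 lower. Above the median probe set, these were 294 and 305, 143 and 85, 1827 and 162, and 308. Higher Huh7-led genes numbered 113 with the offset, 284 without the intensity filter, 30 with thresholds of 2 and 0.5, 320 with Hep3B merely between the thresholds and 107 with a difference of log2 ratios over 1. Lower ones numbered 150 with the mean of probe sets, 30, 379 and 99. Genes higher in Huh7 and lower in Hep3B numbered 14 with the mean of probe sets and 3 with thresholds of 2 and 0.5, and the reverse 9 and 2, or 6 with the offset. With dim probe sets included, 74.8% of other probe sets of higher genes and 70.7% of those of higher Huh7-led genes had the same direction. The causes were not tested. Probe sets near the median of 16.2 give ratios whose size is uncertain, and no background call was used here.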

Other observations

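Among groups not described above, the S100 proteins and annexins had 9 of 24 members past 1.5 and 2 past 0.67 in Huh7. ANXA3, an annexin of epithelia, was at 207 with ATO and 54.9 with DMSO, a ratio of 3.77, and S100P at 2604 and 595, a ratio of 4.38. Both were also higher in Hep3B, with ratios of 1.63 and 9.49. ANXA9 was at 208 and 400, a ratio of 0.521. Antigen presentation, which had 7 of 12 members past 1.5 in Hep3B, had 1 in Huh7, the immunoproteasome subunit PSMB9, at 21.5 over a dim control of 11.7. On the probe sets used, the BCL2 family had no member past 1.5 and 2 past 0.67, BMF at 53.7 and 93.7 and BCL2L2 at 80.8 and 121. BID had a ratio of 1.45 on the probe set used. Its other probe sets, also above the median, gave 1.62 and 1.83, so whether BID passes 1.5 depends on the probe set.

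Feedback inhibitors of Wnt signaling were split. DKK1, a secreted inhibitor, was at 2434 and 1522, a ratio of 1.60, against 0.954 in Hep3B, while ZNRF3, which removes Wnt receptors, was at 169 and 310, a ratio of 0.544, against 0.899. CA12, a carbonic anhydrase of the cell surface read by a cross-binding probe set, was at 143 and 32.6, a ratio of 4.38, and 1.26 in Hep3B. Its other probe sets above the median gave 9.10 and 6.43 over dim controls, 4.13 on a cross-binding one, and 0.798 in Huh7. NPPB, which encodes a natriuretic peptide, was at 43.3 and 20.6, a ratio of 2.11, against 0.989 in Hep3B. CD44, an adhesion receptor used as a stem cell marker, was at 39.6 over a dim control of 16.1, a ratio of 2.46, and was dim in Hep3B.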
